A study of Homo sapiens with 12 samples.

Results

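The comparison set the microRNAs (miRNAs) of RAB27A knockdown cells directly against those of miR-122 knockout cells. Both lines derive from MDA-MB-231, an established human triple-negative breast cancer line. All 2588 rows of the miRNA count table entered, 613 of them held enough counts to be tested, and the contrast used 4 of the 12 libraries of the study, 2 per line. In the knockdown line a short hairpin RNA against RAB27A was delivered by lentivirus, and in the knockout line the miR-122 gene was edited by CRISPR-Cas9 with a pair of guide RNAs. Another line with an empty vector served as the study's control. Its 2 cell libraries carried no weight in the contrast, added to the estimate of spread, and their levels are printed beside the others. Cells of each line were collected together with the extracellular vesicles (EVs) they had released into serum-free medium. The labels do not say whether a line was 1 clone or a pool. Each perturbation is represented by 1 line, so the line and its target cannot be told apart. The question was how far the 2 perturbed lines differed from each other. RAB27A messenger RNA was not measured in these libraries.

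A miRNA is cut from a hairpin transcript, and either arm of the hairpin, called 5p or 3p, can be loaded into an Argonaute protein. The seed, bases 2 to 8 of the mature strand, pairs with target messenger RNAs, so miRNAs that share a seed form a family with overlapping targets. Many miRNAs are transcribed together in clusters, and the human genome holds several copies of some clusters on different chromosomes. RAB27A is a small GTPase that docks vesicle-bearing compartments at the cell surface, and miR-122 is best known as the dominant miRNA of the liver. EVs carry small RNAs out of the cell.

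The sequences below are the mature strands, 5′ to 3′, of families whose members stood apart from each other in this comparison. They are RefSeq sequences of build GRCh38.p14, with the seed in capitals. Some members with unlike differences are separated by few bases. The seed AAAGUGC is shared by members of 3 related clusters:
miR-20b-5p: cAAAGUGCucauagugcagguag
miR-106a-5p: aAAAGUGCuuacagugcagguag
miR-20a-5p: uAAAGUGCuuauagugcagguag
miR-17-5p: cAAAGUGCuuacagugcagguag
miR-93-5p: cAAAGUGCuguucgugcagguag
miR-106b-5p: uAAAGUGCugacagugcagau
The seed AUUGCAC belongs to the same clusters and to miR-32:
miR-363-3p: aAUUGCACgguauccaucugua
miR-32-5p: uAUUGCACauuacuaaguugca
miR-92a-3p: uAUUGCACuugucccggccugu
miR-25-3p: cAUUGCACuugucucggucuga
The seed ACCCGUA marks the miR-99 and miR-100 family, which held the largest share of all counts:
miR-99a-5p: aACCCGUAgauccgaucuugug
miR-99b-5p: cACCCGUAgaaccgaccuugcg
miR-100-5p: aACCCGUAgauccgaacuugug
The seed UCACAGU is shared by both copies of miR-27, and CAGUGCA by miR-148 and miR-152:
miR-27a-3p: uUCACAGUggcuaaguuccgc
miR-27b-3p: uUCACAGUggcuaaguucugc
miR-148a-3p: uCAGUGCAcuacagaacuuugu
miR-148b-3p: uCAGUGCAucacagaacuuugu
miR-152-3p: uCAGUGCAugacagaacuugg
The seed GAGGUAG is that of let-7, and GGCAGUG is shared by miR-34a and miR-449a:
let-7c-5p: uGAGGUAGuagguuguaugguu
let-7a-5p: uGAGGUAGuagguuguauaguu
let-7f-5p: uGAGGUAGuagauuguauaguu
let-7b-5p: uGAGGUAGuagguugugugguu
miR-34a-5p: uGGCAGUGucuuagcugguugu
miR-449a: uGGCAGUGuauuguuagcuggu
The last sequence is the strand whose gene was edited in the knockout line:
miR-122-5p: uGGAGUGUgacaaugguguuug

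Knockdown cell libraries held 3159478 and 3140610 counts, knockout cell libraries 10169004 and 9836680, and control cell libraries 11840597 and 11066570. Levels are given as counts scaled by library total (CPM). A single count was worth 0.317 and 0.318 CPM in the knockdown libraries and 0.0983 and 0.102 CPM in the knockout libraries. Replicates correlated at 0.996 (knockdown, 418 miRNAs) and 0.993 (knockout, 518 miRNAs) in log2 CPM. Replicates of the knockout were less alike: 19 of 393 miRNAs with at least 50 counts differed more than 2-fold between them, against 1 of 315 in the knockdown. The labels do not say that replicates came from separate cultures, so each p-value covers no more than the spread among these libraries, and that spread may be technical. Of the 1975 rows not tested, 828 had a count in the 4 libraries, and the 613 tested rows held at least 99.98% of the counts of each.

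The 2 lines differed in most of the miRNAs tested. By edgeR's quasi-likelihood test, 395 of 613 (64.4%) passed an adjusted p of 0.05, 207 (33.8%) higher and 188 (30.7%) lower in the knockdown. Without knockdown replicate 1 there were 287 calls, 162 higher and 125 lower. A further condition of at least a 4-fold difference left 154 (25.1%), 100 higher and 54 lower. Both libraries of a line were at 0 for 23 tested miRNAs, 19 of them called, and their fitted folds depend on the prior count. With such groups set to 3 counts, 100 calls lay past 4-fold higher and 50 past 4-fold lower, and past 16-fold 30 and 8. The libraries of the 2 lines did not overlap in CPM for 491 miRNAs (80.1%). Each SE below was obtained as the absolute log2 difference divided by the root of F. The median log2 difference over all tested miRNAs, knockdown minus knockout, was −0.03. With scaling by total counts in place of trimmed means that median was 0.29, and 239 miRNAs were called higher and 140 lower. Differences smaller than that shift could change sign with the scaling.

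**Figure D1:**
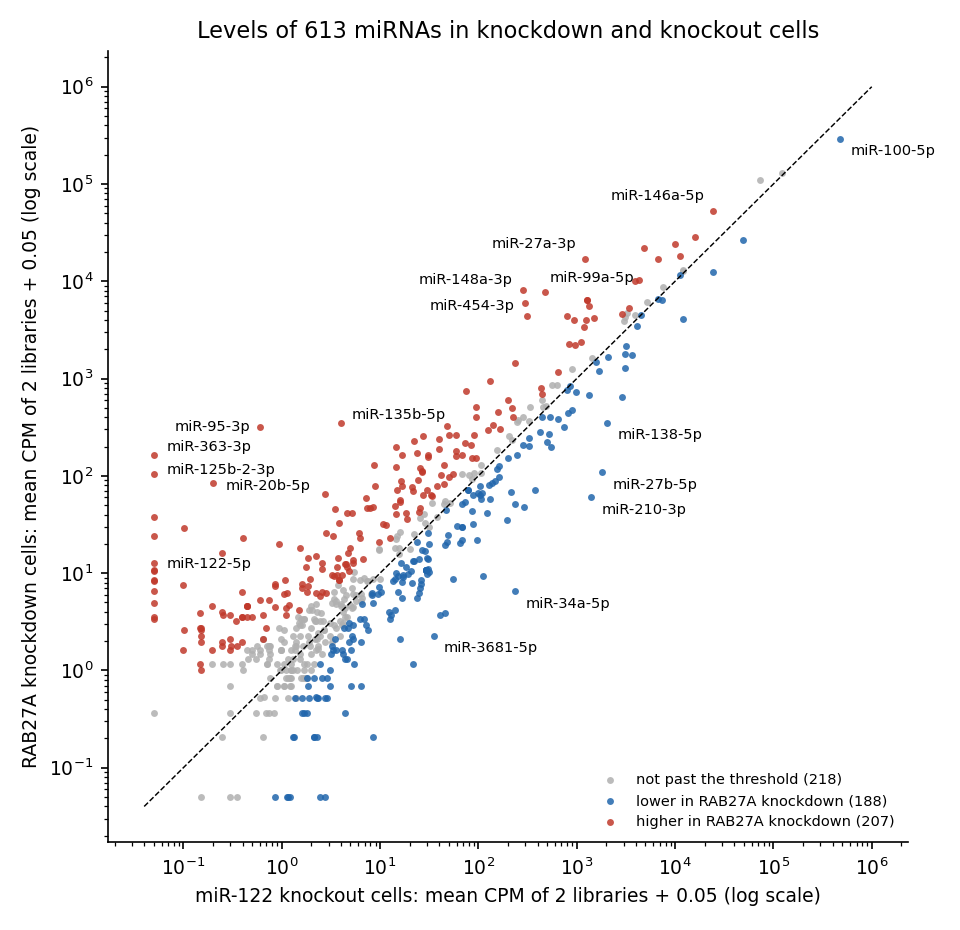
Mean CPM of the 2 knockout cell libraries (horizontal, log scale) against that of the 2 knockdown cell libraries (vertical, log scale) for 613 tested miRNAs, with 0.05 added so that zeros can be drawn and a dashed line of equal level. Red points (207) were higher and blue points (188) lower in the knockdown by edgeR's test, and the group at the left edge had no count in the knockout cells.

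The edited miRNA served as a check of the labels, a limited one in cells. In the knockdown libraries miR-122-5p stood at 12.3 and 12.7 CPM (39 and 40 counts), while both knockout libraries lacked it. Against the 0.15 CPM that 3 counts over the knockout group would give, it was at least 83.6-fold higher in the knockdown cells (adjusted p = 8.33e-10). Control cells had 5 and 4 counts, 0.392 CPM ± 0.043 (SD, n = 2), so the control level lay close to that limit. In cells the knockout was therefore separated from the control by these few counts only. miR-122-5p passed the filter on low counts through the knockdown libraries alone, so its direction was settled by that filter. In the EVs, knockdown libraries were at 42.5 and 29.3 CPM from 7 and 5 counts, knockout libraries at 1.07 and 0.947 CPM from 4 and 3 counts, and control libraries at 331 and 251 CPM from 790 and 651 counts. A single count of the opposite arm, miR-122-3p, was found in knockdown replicate 1, and the arms of miR-3591, which lies on the opposite strand at the same place, had none in any cell library.

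The miRNAs higher in the knockdown are described by cluster and family, and 15 of them were named by a rule on size, separation and level. The miR-106a-363 cluster on chromosome X is a copy of the growth-associated miR-17-92 cluster, and its members are usually little expressed in adult tissue. All 4 tested members were called higher in the knockdown, with a median log2 difference of 6.59, against 33.8% called higher and a median of −0.03 over all tested miRNAs. The other 6 entries of the cluster had at most 10 counts in the 4 libraries together. miR-363-3p (chrX:134169382-134169403, minus strand) had 528 and 512 counts in the knockdown, 167 and 163 CPM, and none in either knockout library. It was at least 1101-fold higher (adjusted p = 2.15e-15), while the control cells had 1.18 and 0.632 CPM. miR-20b-5p (chrX:134169850-134169872, minus strand) stood at 79.1 and 88.2 CPM in the knockdown and 0.197 and 0.102 CPM in the knockout. The 527 against 3 counts gave a ratio of 558, with an exact binomial 95% interval of 190 to 2714 that covers counting error only. miR-106a-5p stood at 53.2 and 65.0 CPM against 6.29 and 8.03 CPM, a log2 difference of 2.72 (SE 0.20, adjusted p = 2.27e-10). miR-18b-5p, with 29 against 3 counts, gave a ratio of 30.7 (9.51 to 157). It passed the filter on low counts through the knockdown alone. With at least 10 CPM in 2 libraries the other 3 members were left, all higher, with a median of 8.70. Of these, miR-363-3p and miR-20b-5p reached 10 CPM in the knockdown libraries alone, so their direction was settled by that filter. The knockdown libraries were above both knockout and control libraries for each of the 4 tested members.

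The autosomal copies had smaller differences, and in both directions. Of 11 tested arms of the miR-17-92 cluster on chromosome 13, 6 were higher and 4 lower (33.8% and 30.7% over all tested). Their median was 0.42. With total counts these were 7 and 2, and without knockdown replicate 1 they were 5 and 2. miR-20a-5p, a member of that cluster, stood at 4239 and 4508 CPM in the knockdown and 281 and 347 CPM in the knockout (log2 difference 3.48, SE 0.12, adjusted p = 1.30e-15). Both knockdown libraries were also slightly above the control libraries, at 3836 and 4011 CPM. miR-17-5p (1.12) and miR-92a-3p (1.18) were higher by smaller log2 differences. miR-19b-3p had a log2 difference of −0.64 although its libraries overlapped (1596 and 1721 against 1639 and 2546 CPM), and it lost the call with total counts and without knockdown replicate 1. All 6 arms of the miR-106b-25 cluster on chromosome 7 were lower in the knockdown (30.7% of all tested miRNAs were), with a median of −0.82, 5 of them with total counts, 4 after correction for GC content and 3 without knockdown replicate 1. miR-106b-5p stood at 271 and 298 CPM against 382 and 460 CPM, a log2 difference of −0.89 (adjusted p = 3.16e-06). miR-25-3p had a log2 difference of −0.33 that lost the call in 8 of the other settings.

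Within 1 seed the members therefore moved apart. Among the AAAGUGC sequences the log2 differences ran from 8.68 for miR-20b-5p to −0.89 for miR-106b-5p, and among the AUUGCAC sequences miR-25-3p had the lowest and miR-363-3p the highest value. miR-20b-5p and miR-20a-5p differ at C1U and C10U, with positions counted from the 5′ end, the miR-20b base first and the miR-20a base second. miR-20b-5p amounted to 1.87% and 1.96% of the miR-20a-5p count in the knockdown libraries, 0.0699% and 0.0293% in the knockout and 0.0727% and 0.0789% in the control. miR-32-5p, which lies alone in an intron on chromosome 9, stood at 185 and 209 CPM in the knockdown against 13.7 and 15.6 CPM (log2 difference 3.43, SE 0.15). Its control libraries, at 211 and 217 CPM, were above both lines.

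The miR-99a, let-7c and miR-125b-2 cluster on chromosome 21 showed the same split between copies. This cluster has paralogs on chromosomes 11 and 19, which carry miR-100 and miR-99b, and its members have been studied as restraints on growth signalling. All 5 arms were higher in the knockdown, against 33.8% of all tested miRNAs. miR-99a-3p and let-7c-3p had few counts outside the knockdown libraries and passed the filter through them. With at least 10 CPM in 2 libraries 3 arms were left, all higher, with a median log2 difference of 3.71. Of these, miR-125b-2-3p reached 10 CPM in the knockdown libraries alone, so its direction was settled by that filter. miR-99a-5p (chr21:16539101-16539122, plus strand) stood at 8129 and 7242 CPM in the knockdown and 468 and 484 CPM in the knockout (log2 difference 3.68, SE 0.13, adjusted p = 1.54e-15). Control cells, at 373 and 361 CPM, lay below both lines. let-7c-5p (chr21:16539838-16539859, plus strand) stood at 160 and 167 CPM against 13.5 and 20.1 CPM (log2 difference 2.97, SE 0.17), and the control libraries were at 15.5 and 16.9 CPM. miR-125b-2-3p, the arm that marks transcription from this copy, had 321 and 342 counts against 0 and 0 and was at least 702-fold higher. miR-99a-3p had 31 counts in the knockdown libraries and none in the knockout, at least 32.8-fold higher.

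The paralog on chromosome 11 went the other way. Of its 4 tested arms 3 were lower in the knockdown (30.7% of all tested miRNAs were) and none was higher. Their median was −1.12, and with total counts 1 became higher. miR-100-5p led all 4 libraries, at 300116 and 285315 CPM in the knockdown and 494618 and 456083 CPM in the knockout (log2 difference −1.04, SE 0.12, adjusted p = 3.46e-07). The control libraries, at 335383 and 316649 CPM, lay between. miR-125b-1-3p, the arm specific to that copy, stood at 448 and 446 CPM against 809 and 829 CPM (log2 difference −1.20). miR-125b-5p, which both copies give, was lower too, at 12387 and 12332 CPM against 23170 and 25287 CPM (−1.30). On chromosome 19, 4 of 6 arms were lower, but 1 was without knockdown replicate 1, and with total counts or after GC correction 1 was higher and 2 were lower. Its member miR-99b-5p did not pass the threshold (−0.24) and changed sign between settings.

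miR-99a-5p and miR-100-5p are separated by U16A, the miR-99a base first. miR-99a-5p amounted to 2.71% and 2.54% of miR-100-5p in the knockdown, 0.0946% and 0.106% in the knockout and 0.111% and 0.114% in the control. Reads of such close members can be shared by an aligner, and how the counts treat them is not given in the sources used here. The whole ACCCGUA seed took 32.1% and 30.6% of the counts in the knockdown and 50.8% and 46.8% in the knockout.

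let-7, a family that restrains growth and is plentiful in differentiated cells, had members in both directions. Of 9 tested guide strands 4 were higher and 4 lower in the knockdown, near the 33.8% and 30.7% of all tested miRNAs. By total counts 5 were higher and 2 lower, and 4 were higher and 2 lower when either knockdown library was left out. let-7f-5p stood at 21989 and 22398 CPM against 4344 and 5289 CPM (log2 difference 1.88, SE 0.11, adjusted p = 5.42e-12). let-7i-5p stood at 26134 and 27436 CPM against 53384 and 45223 CPM (−1.22), and let-7b-5p at 651 and 629 CPM against 2417 and 3416 CPM (−2.50, SE 0.12). Summed over the family the lines were close, at 7.35% and 7.54% of counts in the knockdown and 7.52% and 7.23% in the knockout. let-7f-5p and let-7a-5p are separated by A12G, and let-7f-5p amounted to 181% and 207% of let-7a-5p in the knockdown, 44.5% and 42.3% in the knockout and 191% and 185% in the control. let-7a-5p itself overlapped between the lines, at 12171 and 10803 against 9757 and 12517 CPM, with a log2 difference of −0.27 that was 0.04 with total counts.

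The 2 copies of the miR-23, miR-27 and miR-24 cluster also separated. Of 5 tested arms of the copy on chromosome 19, 3 were higher and 1 lower in the knockdown. Among 5 arms of the copy on chromosome 9 none was higher and 4 were lower, the latter count unchanged in the other settings run. Over all tested miRNAs 33.8% were higher and 30.7% lower. miR-27a-3p, studied in fat metabolism and in breast cancer growth, stood at 16350 and 17944 CPM in the knockdown and 961 and 1470 CPM in the knockout (log2 difference 3.51, SE 0.13, adjusted p = 5.02e-15). The control libraries lay between, at 8326 and 8365 CPM. miR-27b-3p, separated from it by C19U with the miR-27a base first, had a log2 difference of −0.10 (adjusted p = 0.414), and 0.22 with total counts. As a percentage of miR-27b-3p, miR-27a-3p was at 193% and 202% in the knockdown, 14.6% and 17.7% in the knockout and 29.1% and 29.4% in the control.

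From the hairpin of miR-27b the passenger arm carried the difference. miR-27b-5p stood at 116 and 101 CPM in the knockdown against 1888 and 1748 CPM in the knockout (−4.40, SE 0.15, adjusted p = 1.54e-15), and control libraries were at 1201 and 1231 CPM. miR-23b-5p, its neighbour, was at 8.23 and 10.2 CPM against 105 and 118 CPM (−3.92). miR-23b-3p was lower as well, at 1740 and 1754 against 3153 and 4146 CPM (−1.38), whereas miR-23a-3p was higher, at 10496 and 10258 against 3731 and 4791 CPM (0.97).

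The knockdown cells were also higher in several miRNAs that single families lead. miR-148a-3p, which has been linked to lipid metabolism and to suppression of breast tumours, stood at 8121 and 8180 CPM against 300 and 274 CPM (log2 difference 4.49, SE 0.14, adjusted p = 4.12e-16). Control libraries were at 5579 and 5540 CPM, nearer to the knockdown. miR-148b-3p was higher by 1.18, and miR-152-3p, of the same seed, was lower at 196 and 195 against 572 and 524 CPM (−1.82). In the miR-130, miR-301 and miR-454 family 6 of 8 were higher and 1 lower, against 33.8% and 30.7% of all tested miRNAs. miR-454-3p led it, at 5789 and 6040 CPM against 289 and 310 CPM (3.98, SE 0.12), with the control libraries at 6329 and 6282 CPM.

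miR-95-3p, an intronic miRNA of chromosome 4, stood at 300.4 and 333 CPM in the knockdown against 0.197 and 0.915 CPM (8.82, SE 0.28, adjusted p = 4.12e-16), and the control libraries were at 7.35 and 8.95 CPM. miR-135b-5p, often raised in breast and colon tumours, stood at 345 and 356 CPM against 3.25 and 4.68 CPM (6.15, SE 0.18). Its partner family member miR-135a-5p had 66 counts against 0 and was at least 69.9-fold higher. All 3 tested arms of the miR-135 family were higher, against 33.8% of all tested miRNAs, with miR-135a-5p tested through the knockdown libraries alone. Both arms of miR-218 were higher too, with miR-218-5p at 719 and 769 against 66.2 and 82.3 CPM (3.0). miR-590-3p stood at 63.9 and 65.9 against 1.57 and 3.86 CPM (4.27), below the control libraries at 114 and 113 CPM. miR-342-3p stood at 232 and 220 against 21.2 and 23.2 CPM (3.02).

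The miR-532, miR-500 and miR-660 cluster on chromosome X had all 14 tested arms higher in the knockdown, with log2 differences from 1.69 to 3.90 and a median of 2.21, and 13 of 14 without knockdown replicate 1. miR-660-5p stood at 123 and 136 CPM against 8.06 and 9.05 CPM (3.59, SE 0.17), with the control libraries at 43.7 and 43.0 CPM. miR-362-5p, another member, stood at 406 and 403 against 98.1 and 93.0 CPM (1.75). Still on chromosome X, miR-105-5p and miR-767-5p lie in an intron of GABRA3, which encodes a subunit of a GABA receptor. miR-105-5p had 182 counts against 1, a ratio of 578 (102 to 22951), and miR-767-5p had 151 against 0, at least 160-fold higher. Both passed the filter on low counts through the knockdown libraries alone, so their direction was settled by that filter. The miR-374 family with miR-545 and miR-421, whose members lie mostly on this chromosome, had 6 of 7 higher and none lower, and after GC correction 5 of 6 higher and 1 lower. Over all 52 tested miRNAs whose only locus is on chromosome X, 37 were higher and 8 lower, with a median of 1.82, and 33.8% of all tested miRNAs were higher. That count and the following names were chosen after their values were seen. The 37 include entries with few counts outside the knockdown libraries, such as miR-363-3p, whose direction the filter settled. miR-708-5p (235 counts against 0), miR-504-5p (53 against 0) and miR-217 (18.4 and 21.3 against 0.885 and 0.915 CPM) were further miRNAs of low or no count in the knockout.

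miR-221 and miR-222, a pair on chromosome X that represses cell-cycle inhibitors, had 3 of 4 arms higher and none lower. Over all tested miRNAs 33.8% were higher. miR-222-3p stood at 15317 and 18310 CPM against 6194 and 7181 CPM (1.01), while miR-221-3p, at 108786 and 112384 against 78234 and 68216 CPM, did not pass the threshold (0.25, adjusted p = 0.0898), and passed with total counts (0.60). miR-16-5p, which targets cyclins, stood at 4316 and 4515 against 672 and 935 CPM (2.15), with control libraries higher than both, at 7326 and 6797 CPM.

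Among the miRNAs lower in the knockdown, miR-34a-5p had the largest difference of the 15 named by rule, which lie at or above the median level, and miR-210-3p the next. miR-34a-5p, a direct target of p53, stood at 6.65 and 6.37 CPM against 190 and 284 CPM (log2 difference −5.49, SE 0.20, adjusted p = 3.98e-15). The control libraries, at 238 and 249 CPM, fell between the knockout libraries, so the knockdown was the line apart. miR-449a, of the same seed, was higher in the knockdown at 7.60 and 4.78 against 1.38 and 0.813 CPM (2.15), and 4 of the 7 tested members of the miR-34 and miR-449 family did not pass. miR-210-3p, the miRNA induced most regularly by hypoxia, stood at 54.4 and 66.2 CPM against 1169 and 1652 CPM (−4.86, SE 0.15, adjusted p = 4.12e-16). Control libraries lay between, at 275 and 288 CPM. Its other arm, miR-210-5p, was lower too, at 1.27 and 0.955 against 14.4 and 28.5 CPM (−4.54).

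The miR-193 and miR-365 family, which acts as a tumour suppressor and in fat cell formation, had all 8 tested entries lower, with a median of −2.62. These were 7 once identical entries were counted once. Over all tested miRNAs 30.7% were lower. With total counts 6 of the 7 were lower, and 5 without knockdown replicate 1. miR-193a-5p stood at 8.55 and 8.92 against 54.6 and 56.4 CPM (−3.0, SE 0.21). miR-193a-3p had 1 count against 169, with a ratio of 53.2 (9.42 to 2114), and miR-193b-3p stood at 25 and 18.5 against 64.0 and 130 CPM (−2.45). In the miR-320 family with miR-484, 5 of 6 were lower and 1 higher, and miR-320a stood at 1305 and 1245 against 2837 and 3299 CPM (−1.59).

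miR-138-5p stood at 369 and 333 CPM against 1732 and 2336 CPM (−2.85, SE 0.13), with both control libraries at 1027 CPM. miR-574-5p, at 54.8 and 41.4 against 241 and 348 CPM, and miR-345-5p, at 65.5 and 77.1 against 317 and 444 CPM, were lower by log2 differences of −2.92 and −2.73. miR-326 stood at 2.85 and 4.46 against 24.0 and 56.9 CPM (−3.75), and its control libraries, at 3.63 and 3.07 CPM, were like the knockdown. miR-3681-5p (−4.30), miR-149-5p (−3.89), miR-16-1-3p (−3.26), miR-629-5p (−2.82) and miR-874-3p (−2.52) completed the 15 lower miRNAs named by rule. The large cluster of primate-specific placental miRNAs on chromosome 19 (C19MC) had all 7 distinct tested sequences lower, against 30.7% of all tested miRNAs. Without knockdown replicate 1 it had 5 of 8 lower. Its most abundant member, miR-516a-5p, stood at 231 and 213 against 469 and 518 CPM (−1.48) and at 73.3 and 72.0 CPM in the control. By contrast none of 92 entries of the imprinted cluster at 14q32 could be tested, and 72 of them had no count in the 4 libraries.

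**Figure D2:**
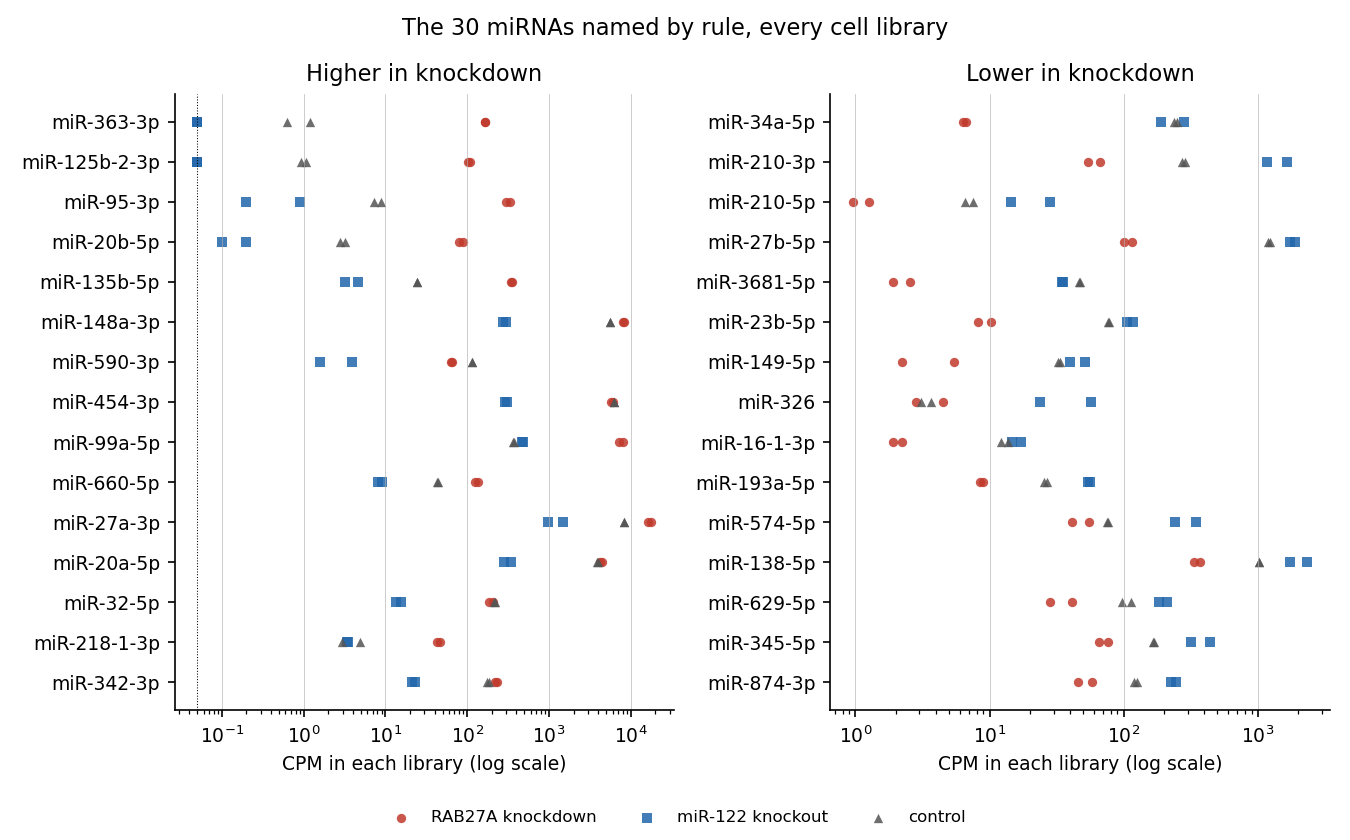
CPM on a log scale in every cell library for the 15 miRNAs with the largest differences toward higher (left) and lower (right) levels in knockdown cells among those at or above the median level of tested miRNAs, so that less abundant miRNAs with larger differences are not drawn. Red circles are the 2 knockdown libraries, blue squares the 2 knockout libraries, grey triangles the 2 control libraries, and zeros sit on the dotted line at 0.05. Knockdown and knockout points are apart in every row, and the control points move from row to row.

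The control levels did not sit at 1 end. Among the 15 named higher miRNAs the control mean lay between the 2 lines in 11, above both in 3 (miR-590-3p, miR-454-3p and miR-32-5p) and below both in 1 (miR-99a-5p). Among the 15 lower it lay between in 12, above both in 2 (miR-34a-5p, by group means, and miR-3681-5p) and below both in 1 (miR-326). These miRNAs were chosen for large differences between the 2 lines, which favours a control level between them. The numbers are descriptions, and the same was not counted over all tested miRNAs.

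Of the 10 miRNAs highest by mean CPM, 5 were higher and 3 lower in the knockdown (33.8% and 30.7% over all tested), and miR-21-5p and miR-221-3p did not pass. miR-21-5p, a broadly expressed growth-promoting miRNA, stood at 129077 and 129051 CPM in the knockdown and 106477 and 137326 CPM in the knockout, overlapping, with a log2 difference of −0.23 (adjusted p = 0.0643). miR-146a-5p, a brake on inflammatory signalling through NF-kappaB, stood at 54797 and 52000 CPM against 23567 and 24854 CPM (0.81, SE 0.11, adjusted p = 2.01e-06). Both lines were far above its control libraries, at 4790 and 4749 CPM. miR-26a-5p was higher by 0.94, at 24563 and 24007 against 10452 and 9569 CPM. miR-30a-5p (0.50) and miR-24-3p (0.39) were higher too, and lost the call without knockdown replicate 1.

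The counts of other families are read beside the 33.8% higher and 30.7% lower over all tested miRNAs. Several of these counts, such as those of miR-30 and miR-181, lie near those shares or rest on few arms. The miR-30 family, which holds back mesenchymal traits, had 4 of 11 arms higher and 4 lower, and 6 higher and 2 lower with total counts. miR-30c-5p, an abundant member, was higher at 3624 and 4310 CPM against 728 and 1132 CPM (1.79). The miR-29 family, which represses collagens, had 5 of 7 arms lower and none higher, with miR-29a-5p at 20.9 and 19.7 against 51.7 and 77.4 CPM (−1.97). The miR-182, miR-96 and miR-183 cluster, known from sensory organs, had 4 of 5 lower and none higher, with miR-182-5p at 1792 and 1818 against 3116 and 3127 CPM (−1.12). miR-33, which lies in the genes of sterol regulatory factors, had 3 of 4 lower, 2 with total counts, and miR-33a-5p stood at 23.4 and 20.4 against 62.7 and 73.5 CPM (−1.96). The miR-15, miR-16 and miR-195 family had 4 of 8 higher and 2 lower, and the cluster of miR-424, miR-503, miR-542 and miR-450 had 2 of 10 higher and 4 lower, with 4 higher and 3 lower by total counts. In that cluster miR-424-5p was higher (1.26) and miR-542-3p lower (−1.28), although they derive from neighbouring hairpins. The miR-181 family had 3 of 10 higher and 3 lower, and 1 higher after GC correction. The miR-26 family had 3 of 5 higher and 1 lower. miR-224 and miR-452, from 1 locus on chromosome X, had 2 of 4 arms higher and 2 lower, with miR-224-5p at 0.99 and miR-452-5p at −1.51. miR-10 and miR-196, which lie among the HOX genes, had 1 of 4 lower and none higher.

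**Figure D3:**
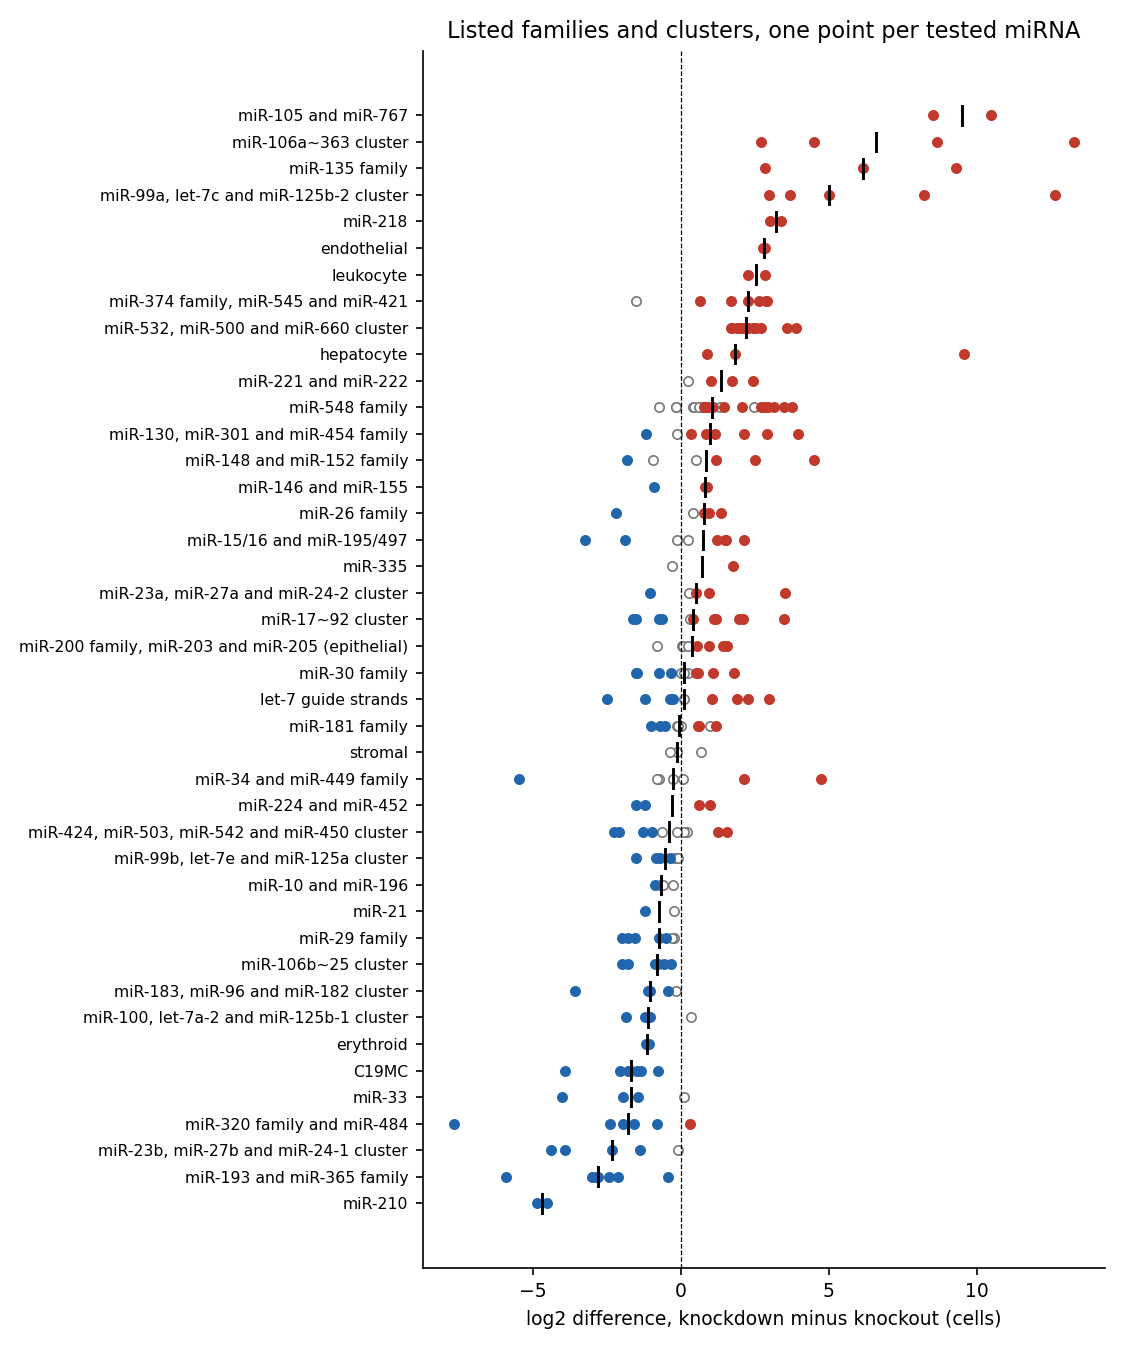
Log2 difference, knockdown minus knockout, of each tested miRNA in the lists of families, clusters and cell type markers, ordered by median (black bar), with identical entries drawn once. Red points were called higher and blue points lower by edgeR's test, and open points did not pass. The X-linked miR-106a-363 cluster and the chromosome 21 cluster of miR-99a lie to the right and miR-210, miR-193 and miR-365 to the left.

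Markers of other cell types were read beside the 33.8% higher and 30.7% lower over all tested miRNAs. MDA-MB-231 cells are mesenchymal-like, and the epithelial miR-200 family with miR-203 and miR-205 summed to 328 and 335 CPM in the knockdown and 135 and 147 CPM in the knockout, with 4 of 8 higher and none lower. After GC correction 2 were higher. Hepatocyte markers summed to 594 and 625 CPM against 203 and 198 CPM, with all 3 tested higher, most of it miR-192-5p and miR-194-5p. The third was miR-122-5p, edited in the knockout line and tested through the knockdown libraries alone, so its direction was settled beforehand. The 2 arms of the endothelial marker miR-126 summed to 196 and 211 CPM against 22.3 and 24.5 CPM, and miR-126-3p had a log2 difference of 2.76 (SE 0.16). Leukocyte markers summed to 13.3 and 13.4 against 1.08 and 2.64 CPM, all from miR-142 but for 1 count, with no count of miR-223 in the 4 libraries. Erythroid markers summed to 99.1 and 99.98 against 169 and 165 CPM, nearly all miR-486, with 2 of 2 lower, and 1 of 2 by total counts. Stromal markers had none of 4 entries called, 1 with total counts, at 13.3 and 16.6 against 12.2 and 15.0 CPM. No muscle marker was tested, and the sums were at most 0.955 CPM. The part of any such cells in the results was not tested.

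Both arms of a hairpin derive from 1 transcript. Of 161 hairpins with both arms tested, 77 had both arms called, 39 with both higher, 26 with both lower and 12 in opposite directions. In 63 hairpins 1 arm was called. The shares over all tested miRNAs were 64.4% called, 33.8% higher and 30.7% lower. The 26 include miR-365a and miR-365b, which share the counts of their 3p arm. They also include miR-519a and miR-522, which share those of their 5p arm. Where both arms were called they mostly shared a direction, and miR-26b was an exception. Its guide miR-26b-5p was higher, at 3800 and 4204 against 1224 and 1260 CPM (1.36), while miR-26b-3p was lower, at 6.96 and 7.0 against 25.3 and 25.8 CPM (−2.20). The arms of miR-27a also stood apart, with miR-27a-5p at a log2 difference of 0.28 and not past the threshold. Both arms of miR-135b were higher, by 6.15 for 5p and 2.85 for 3p.

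The differences moved with base composition. Across 535 miRNAs with a RefSeq sequence, the log2 difference and GC content had a Spearman rho of −0.369, and length one of 0.033, given as descriptions across miRNAs of the same libraries. Of 109 miRNAs under 40% GC, 57 were higher and 16 lower (52.3% and 14.7%), with a median of 1.23. Of 165 over 55% GC, 26 were higher and 71 lower (15.8% and 43.0%), with a median of −0.72. The trend lay more in the knockout libraries, whose deviation from the mean over the 6 cell libraries had a rho with GC of 0.425 and 0.418, against −0.222 and −0.226 in the knockdown and −0.246 and −0.278 in the control. After each library was corrected for GC content, 347 of 535 miRNAs were called, and 303 of these were called in the same direction without the correction. Of the calls made without it, 354 were among those 535. The 30 miRNAs named by rule for their differences kept direction and call wherever they could be fitted, an outcome favoured by their choice for large differences. In the miR-548 family, a large AU-rich family, 12 of 22 distinct sequences were higher and none lower, against 33.8% and 30.7% of all tested miRNAs. Without knockdown replicate 1 there were 6 higher, and after correction 4 of 12 were higher and 2 lower. In the EVs the same contrast had a rho with GC of 0.0214 over 377 miRNAs.

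**Figure D4:**
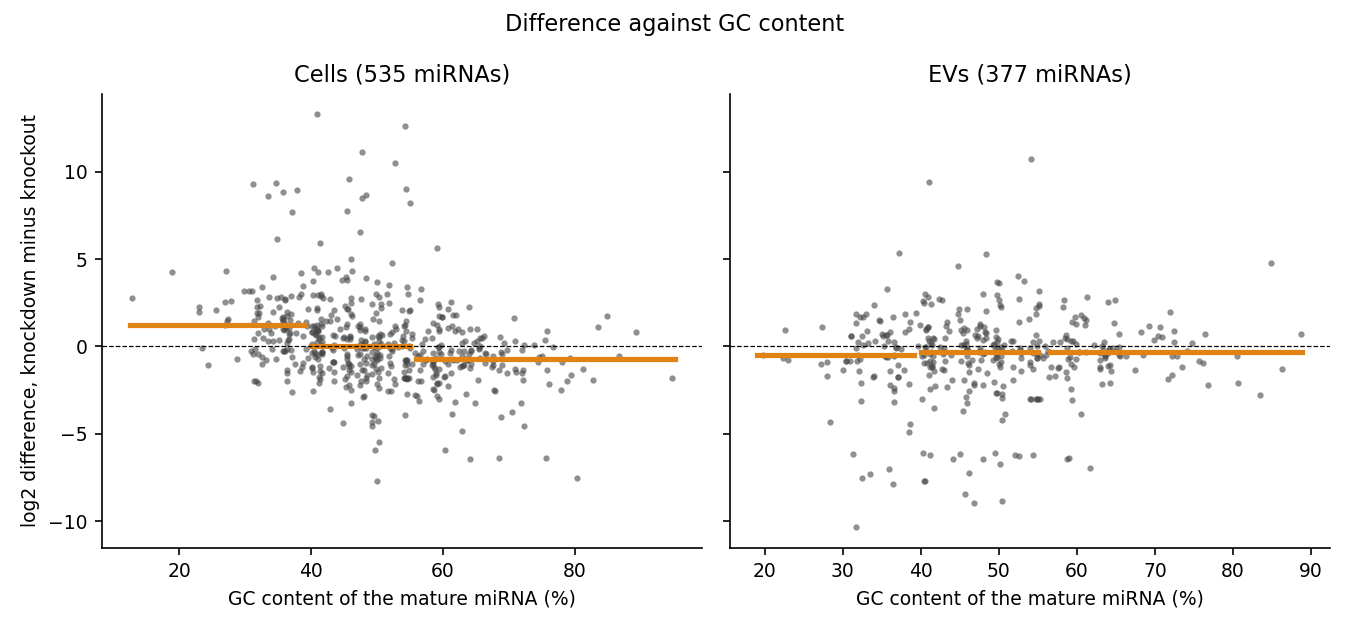
Log2 difference, knockdown minus knockout, against the GC content of the mature miRNA in percent, in cells (left, 535 miRNAs) and EVs (right, 377 miRNAs), with a small sideways scatter of the points. Orange bars are the medians of miRNAs under 40%, from 40% to 55% and over 55% GC, which descend from 1.23 to −0.72 in cells and stay between −0.49 and −0.31 in EVs.

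The EVs of both lines gave the same contrast in other libraries. Of 488 miRNAs tested there, 197 (40.4%) were called, 86 higher (17.6%) and 111 lower (22.7%), at far lower depth in the knockdown EVs (164656 and 170366 counts). With total counts these were 130 higher and 71 lower. Of 157 miRNAs higher in knockdown cells and tested in both, 56 were higher, 29 lower and 72 not called in EVs. Of 154 lower in cells, 60 were lower, 9 higher and 85 not called. miR-99a-5p had log2 differences of 3.68 in cells and 3.67 in EVs, with an adjusted p of 0.675 for the difference between them. miR-34a-5p had −5.49 and −4.21, which were not told apart either (adjusted p = 0.25). In the fit of all 12 libraries, cells and EVs were told apart for 203 of 574 miRNAs (35.4%). A miRNA could enter that fit through the counts of 1 group, and 430 were tested in both separate fits. The 30 miRNAs named by rule were chosen on their values in cells, which favours a difference from EVs, so their values are given as a description. miR-454-3p differed in cells by 3.98 and in EVs by 0.03, miR-27a-3p by 3.51 and 0.29, and miR-148a-3p by 4.49 and 2.99. let-7f-5p was higher in knockdown cells (1.88) and lower in knockdown EVs (−0.86).

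**Figure D5:**
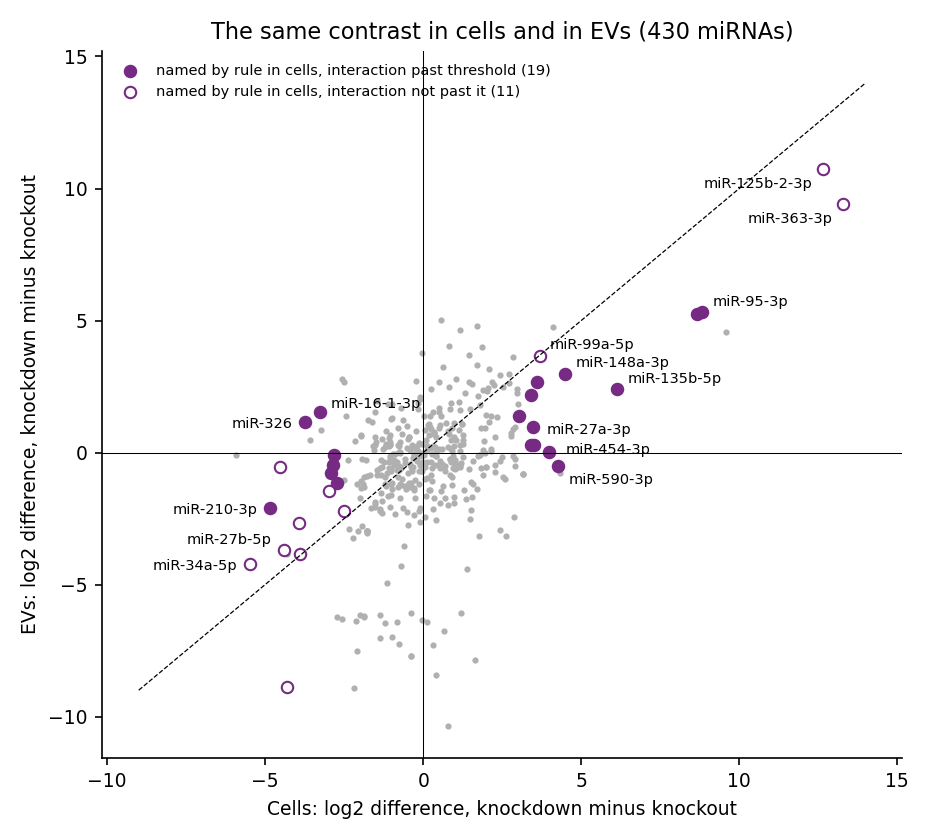
Log2 difference, knockdown minus knockout, in cells (horizontal) and in EVs (vertical) for 430 miRNAs tested in both, with a dashed line of equality. Purple points are the 30 miRNAs named by rule, chosen on their values in cells, filled where the interaction passed the threshold (19) and open elsewhere (11). Points such as miR-454-3p and miR-27a-3p lie near 0 in EVs.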

How the data were processed

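Small RNA was sequenced from the cells and EVs of 3 MDA-MB-231 lines, 2 libraries per group. The deposited values are whole-number counts per mature miRNA, not normalized by the authors as far as the values show. Reads were handled with cutadapt and Bowtie on build hg19, per the submitters' processing notes. Not given in the sources used here are their versions, the miRNA annotation, the mismatches allowed and how reads with several matches were counted. Adapter ligation required a phosphate at the 5′ end of the RNA, per the labels' protocols. Without molecular identifiers, intervals and limits cover counting error only.

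Differences were tested with the quasi-likelihood method of edgeR 4.0.16 (under R 4.3.3 with limma 3.58.1; TMM factors, robust dispersion, filterByExpr, Benjamini-Hochberg at 0.05) on the 6 cell libraries, with the contrast knockdown minus knockout. EVs were fitted on their 6 libraries (488 miRNAs) and the difference between fractions on all 12 (574). CPM uses library totals, whereas fitted log2 differences include TMM factors (0.785 and 0.936 in the knockout, 1.06 and 1.09 in the knockdown). A group at 0 was compared at 3 counts over its summed total. With few counts the SE can be smaller than counting error. On simulated counts of 586 miRNAs for this contrast, 94.6% of 4-fold and 65.3% of 2-fold changes were recovered, with 3.16% false among calls. There 193 miRNAs were changed, in the knockdown alone and in both directions, with a common dispersion trend for all libraries. The data held more calls and less alike knockout replicates, so these rates need not hold for the calls reported here. Sets of entries with identical counts (9 among those with at least 50 counts) share reads and were counted once where stated.

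Named miRNAs are the 15 per direction with the largest log2 difference among those past the threshold, with groups not overlapping and a mean level at or above the median, the arms of miR-122, the 10 most abundant, up to 4 of the most abundant per list and 5 hairpins with unlike arms. Of list members a subset is named, and other names were chosen after their values were seen. Members, the 44 lists and the rule were chosen with earlier results of these data known. Alternatives were RLE size factors, total counts, DESeq2 1.42.0, other filters, the 4 libraries alone, a replicate block, GC correction, thinning to the shallowest library and leaving out each library.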

Additional observations from a re-analysis of the deposited data

Results flagged for a closer look

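For 19 of the 30 miRNAs named by rule, edgeR's interaction contrast between cells and EVs passed the threshold for the knockdown minus knockout difference. These miRNAs were chosen for large differences in cells, which favours a difference from EVs, so the number and the values below are descriptions and are not set against other miRNAs. Values are the difference in cells minus that in EVs, in log2 units. Among those higher in knockdown cells, it was largest for miR-590-3p (4.85), miR-454-3p (4.05), miR-135b-5p (3.84), miR-95-3p (3.56), miR-20b-5p (3.42), miR-27a-3p (3.32) and miR-32-5p (3.26). It was smaller for miR-20a-5p (2.61), miR-342-3p (1.72), miR-148a-3p (1.61), miR-218-1-3p (1.31) and miR-660-5p (1.02). Among those lower in knockdown cells, miR-326 (−4.83) and miR-16-1-3p (−4.69) had the largest values, with few counts in the knockdown EVs. The others were miR-210-3p (−2.66), miR-629-5p (−2.60), miR-138-5p (−2.26), miR-574-5p (−2.03) and miR-345-5p (−1.47). Knockdown EV libraries held 164656 and 170366 counts, the fewest of the study, and the part of depth in these differences was not tested.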

How the results depend on the processing

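All 30 miRNAs named by rule for their differences kept direction and call in every setting that could fit them, and 106 of the 120 miRNAs examined in cells did so. The 30 were chosen for large, separated differences in these same libraries, which favours that outcome. Against 395 calls (207 higher, 188 lower), RLE size factors gave 400, total counts 379, DESeq2 354, no filter 413 of 1587, the stricter filter 267 of 327, the 4 libraries alone 367 of 526, GC correction 347 of 535, the replicate block with GC correction 332, thinning 343 of 454 and identical entries counted once 390. Leaving out 1 library gave 287 to 422 calls, 162 to 232 higher and 125 to 208 lower, the fewest without knockdown replicate 1, where 125 were lower. The replicate block gave 384 calls in cells, 202 higher and 182 lower, and 182 in EVs. Deviations of same-numbered libraries correlated at −0.0075 between knockdown and knockout over 613 miRNAs. That value cannot show whether same-numbered libraries shared a culture or a day, which the labels do not give. In EVs, total counts gave 130 higher and 71 lower in place of 86 and 111.

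Among the named miRNAs, signs turned only for small differences, and the cause was not tested. With total counts miR-21-5p was at 0.082, miR-99b-5p at 0.10, let-7a-5p at 0.045, miR-27b-3p at 0.22 and, in EVs, miR-138-5p at 0.0078 and miR-629-5p at 0.38. miR-99b-5p was at 0.36 after GC correction, 0.37 with the replicate block and GC correction and, with 1 library left out, ran from −0.44 to 0.11 (without knockout replicate 1). miR-27b-3p, with 1 library left out, ran from −0.048 to 0.011, above 0 without knockdown replicate 1 (0.0087) and without control replicate 1. let-7g-5p, miR-450b-5p and miR-200b-3p lost the call after GC correction, and miR-93-5p without knockdown replicate 1. With 2 libraries per group, recovery of 2-fold changes limits what a missing call can show.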
